A study of Nothobranchius furzeri with 16 samples.

Results

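The genes described here are the RING finger and F-box ubiquitin ligase genes of the turquoise killifish Nothobranchius furzeri, measured by RNA-seq in brain. They were taken by name. A row counted if its symbol began with RNF and a digit, or with FBXO, FBXL or FBXW, and if it reached 1 TPM (a transcript count scaled by gene length and library total) in at least 8 of the 16 fish. Of 26739 rows in the table, 148 carried such a symbol, and 131 of these also met the level rule. They comprised 72 RING rows and 59 F-box rows, the latter split into 31 FBXO, 18 FBXL and 10 FBXW rows.

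The study compared 8 fish injected with bortezomib, an inhibitor of the proteasome, with 8 fish injected with the vehicle. All were adults of a single hatch, 12 to 14 weeks post hatch, of both sexes, and were allocated to a group at random. Each received 5 intraperitoneal injections, on days 0, 6, 12, 18 and 24 of a 4-week course, at 10 µl for each g a fish weighed. The bortezomib fish received a 500 µM solution, and the vehicle fish received 1% DMSO in salt solution. Each library came from the brain of 1 fish, taken on the final day. The strain is not given in the sources used here, and neither is the sex of each fish.

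Ubiquitin ligases choose which proteins are marked with ubiquitin, and many marked proteins are then degraded by the proteasome, the protease that bortezomib blocks. A RING finger binds the ubiquitin-loaded conjugating enzyme and lets it pass ubiquitin directly to the substrate. Many F-box proteins are instead exchangeable substrate receptors of SCF ligases. In these SKP1 holds the F-box, a cullin forms the scaffold and a small RING protein recruits the conjugating enzyme. In neurons, ligases of both kinds take part in axon growth, synapse turnover and the disposal of misfolded proteins.

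All 18529 rows at or above 1 TPM in at least 8 fish were tested together with limma on log2(TPM + 1), and p-values were adjusted by Benjamini-Hochberg over all of them. Of these rows, 669 (3.61%) were higher in bortezomib fish and 232 (1.25%) were lower at an adjusted p under 0.05, 4.86% in both directions together. TPM keeps no absolute depth, but the relative depth recovered from the steps between low values ran from 0.857 to 1.38. Neuron markers were present in every brain. Their summed level was 5034 to 5924 TPM in bortezomib fish and 3607 to 5412 TPM in vehicle fish, a difference past the threshold in an exact permutation test (two-sided, p = 0.00124, adjusted p = 0.0112 over 9 marker lists). Of 17 neuron marker rows, 1 was itself called higher and 0 lower. Summed myelin markers stood at 8343 ± 1608 TPM under bortezomib and 11007 ± 1936 TPM under vehicle (SD, n = 8 per group, exact permutation p = 0.0103, adjusted p = 0.0462), with 1 of 13 rows called higher and 1 lower. For the other 7 marker lists the adjusted exact p was at least 0.533. Transcripts of the pituitary, a gland at the base of the brain, summed to 2141 TPM or more in 4 fish (bortezomib replicates 6 and 7, vehicle replicates 5 and 6) and to at most 21.3 TPM in the other 12. In whole brain, fewer cells of a type and less RNA per cell cannot be told apart.

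Of the 131 ligase rows, 11 passed the threshold: 6 rose and 5 fell in bortezomib fish. That is 8.40% of the rows, beside 4.86% of all rows tested. Among the RING rows 5 of 72 rose and 3 fell (11.1%). Among the F-box rows 1 of 59 rose and 2 fell (5.08%), a share near the background. The difference between the families rests on 8 and 3 rows and was not tested. Before adjustment, 11 RING and 8 F-box rows were higher at p under 0.05 (background 14.2%), and 9 and 6 were lower (background 6.94%).

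Changes ran in both directions in either family. The median log2 fold change was -0.0065 over the RING rows and -0.0044 over the F-box rows, beside 0.035 over all rows tested. In the RING family 35 rows had a positive and 37 a negative change, and in the F-box family 29 were positive and 30 negative. Changes were small: the median size was 0.12 on the log2 scale in both families, beside 0.15 over all rows, and FBXO2 was the 1 row that exceeded 2-fold. The RING rows summed to 2493 ± 106 TPM under bortezomib and 2548 ± 101 TPM under vehicle, and the F-box rows to 1296 ± 126 and 1254 ± 83.9 TPM (SD, n = 8 each). The groups' TPM values overlapped in all but 3 of the 131 rows, namely RNF181, RNF170 and RNF220A. Over all rows, 1.3% did not overlap. Of the 3 rows, 2 were higher (background 1.08%) and 1 was lower (background 0.221%). Under median-of-ratios or upper-quartile scaling of the fish, 1 RING row did not overlap.

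**Figure D1:**
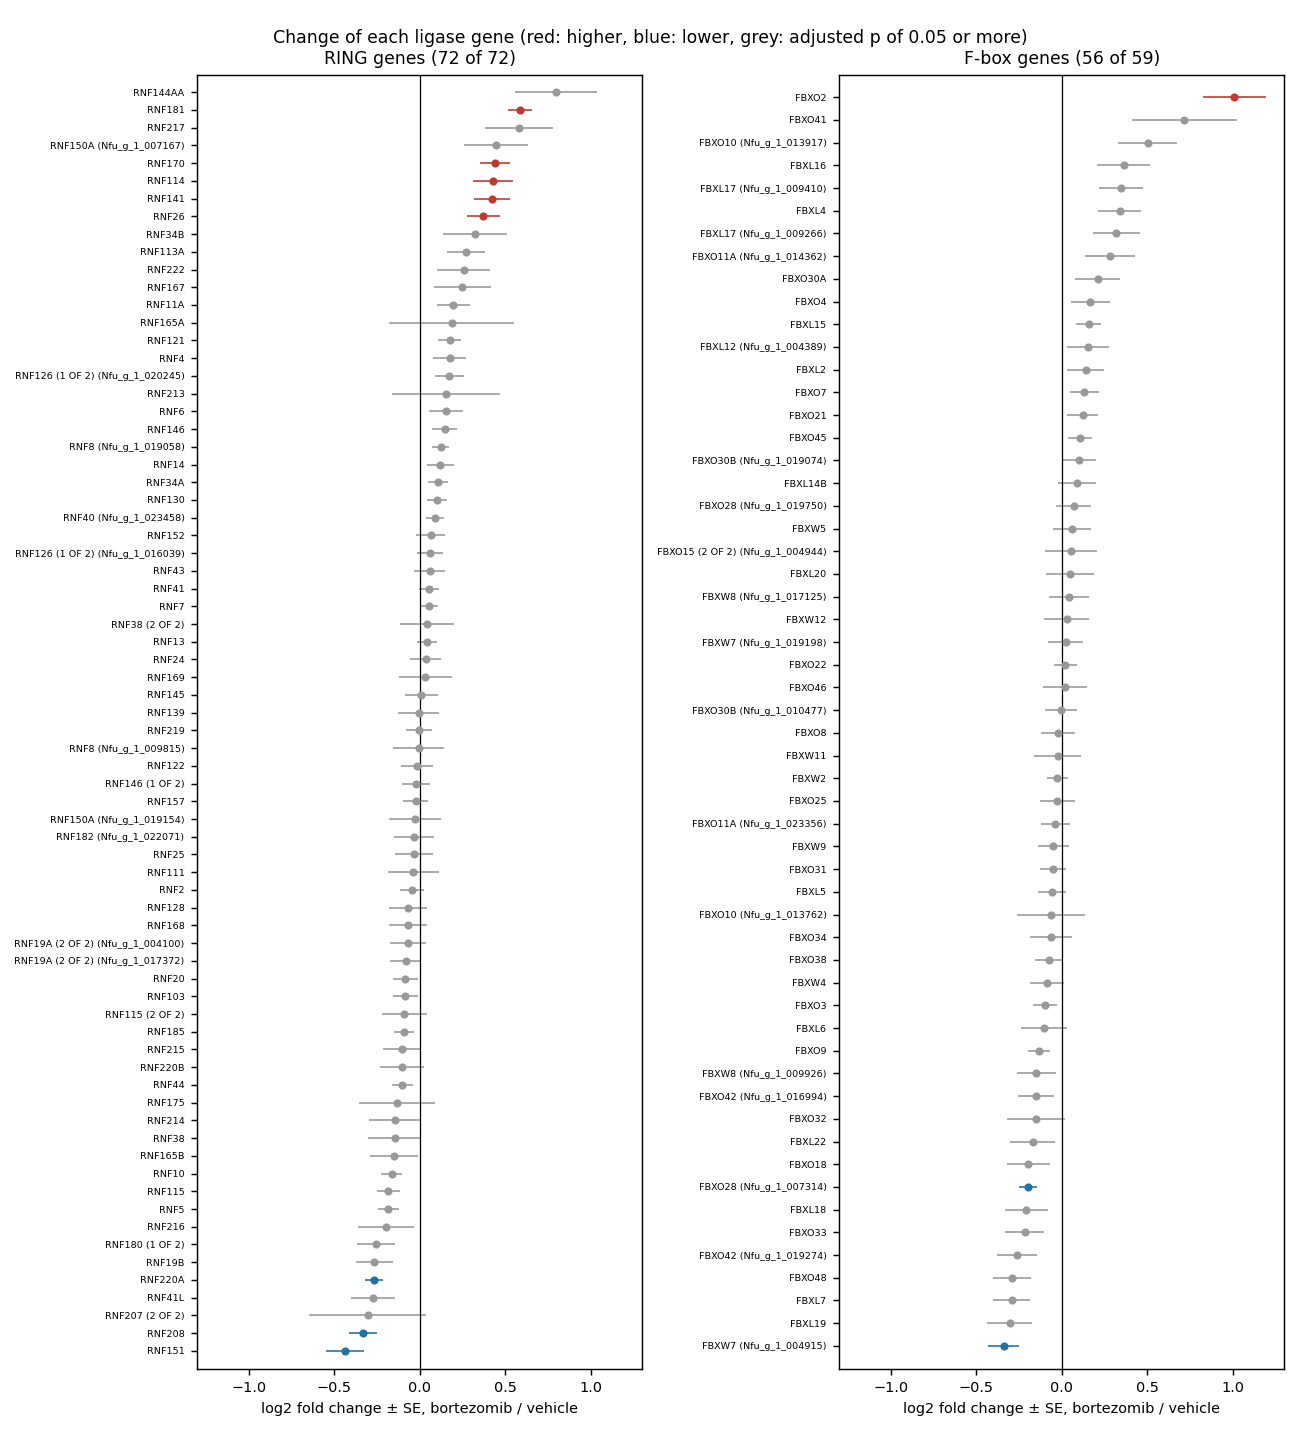
Log2 fold change (x axis, bortezomib over vehicle, log2(TPM + 1) scale) of each of the 72 RING rows (left) and of 56 of the 59 F-box rows (right), with standard errors; red rows rose, blue rows fell, grey rows did not pass. Both families straddle 0, with FBXO2 at 1.01 the highest of all rows.

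The 5 RING genes that rose were RNF181, RNF170, RNF114, RNF141 and RNF26, all by 0.37 to 0.59 on the log2 scale. RNF181, a small RING ligase first found in humans through its binding to a platelet integrin, ran from 17.5 to 21.1 TPM in bortezomib fish (median 18.5) and from 10.6 to 13.5 TPM in vehicle fish (median 12.6). Every bortezomib brain was above every vehicle brain. The means were 18.7 ± 1.18 and 12.2 ± 1.14 TPM (SD, n = 8 each), a log2 fold change of 0.59 ± 0.07 (SE; limma adjusted p = 6.23e-05), the smallest p among the ligase rows. RNF170, a ligase of the endoplasmic reticulum (ER) membrane that directs activated IP3 receptors to degradation, ran from 22.03 to 32.9 TPM (median 25.6) under bortezomib and from 16.7 to 21.8 TPM (median 20.01) under vehicle. These groups did not overlap either. The log2 fold change was 0.44 ± 0.09 (SE; limma adjusted p = 0.0105).

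RNF141, a RING protein first described in testis, ran from 46.1 to 66.1 TPM in bortezomib fish (median 56.0) and from 31.0 to 52.6 TPM in vehicle fish (median 40.3). The ranges overlapped, with the higher values in bortezomib fish, and the log2 fold change was 0.42 ± 0.11 (SE; limma adjusted p = 0.0297). RNF114, a cytosolic RING ligase that binds ubiquitin, ran from 16.7 to 20.8 TPM (median 18.7) against 8.19 to 17.3 TPM (median 14.6). Only the top of the vehicle range reached the bortezomib range, and vehicle replicate 7 was the lowest of all 16. The log2 fold change was 0.43 ± 0.12 (SE; limma adjusted p = 0.0438). RNF26, an ER-membrane ligase known for holding endosomes near the nucleus, was a low-level gene, with 2.68 to 3.65 TPM (median 3.24) against 1.58 to 2.92 TPM (median 2.25). The ranges overlapped at their edges. Its log2 fold change was 0.37 ± 0.10 (SE; limma adjusted p = 0.0362), on 73 to 108 recovered reads per bortezomib fish and 45 to 110 per vehicle fish, in units of relative depth.

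The 3 RING genes that fell were RNF220A, RNF208 and RNF151. RNF220A, a copy of a ligase that in the mouse acts in the nucleus during neural development, ran from 40.3 to 45.3 TPM in bortezomib fish (median 42.9) and from 47.5 to 57.4 TPM in vehicle fish (median 52.3). Every bortezomib brain was below every vehicle brain, and the spread between fish was small, with means of 43.1 ± 1.51 and 52.2 ± 3.71 TPM (SD, n = 8 each). The log2 fold change was -0.27 ± 0.05 (SE; limma adjusted p = 0.00785). RNF208 was among the most abundant ligase genes, with 327.5 to 444 TPM (median 375) under bortezomib and 388 to 554 TPM (median 469) under vehicle. The groups overlapped in the middle of this span. The log2 fold change was -0.33 ± 0.08 (SE; limma adjusted p = 0.0275). RNF151, known in the mouse from developing sperm, was barely detected, with 0.565 to 1.22 TPM (median 0.93) against 0.986 to 2.03 TPM (median 1.65). It reached 1 TPM in 3 bortezomib and 7 vehicle fish, so it entered the set mostly through the group in which it was higher. The log2 fold change was -0.44 ± 0.11 (SE; limma adjusted p = 0.0338).

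**Figure D2:**
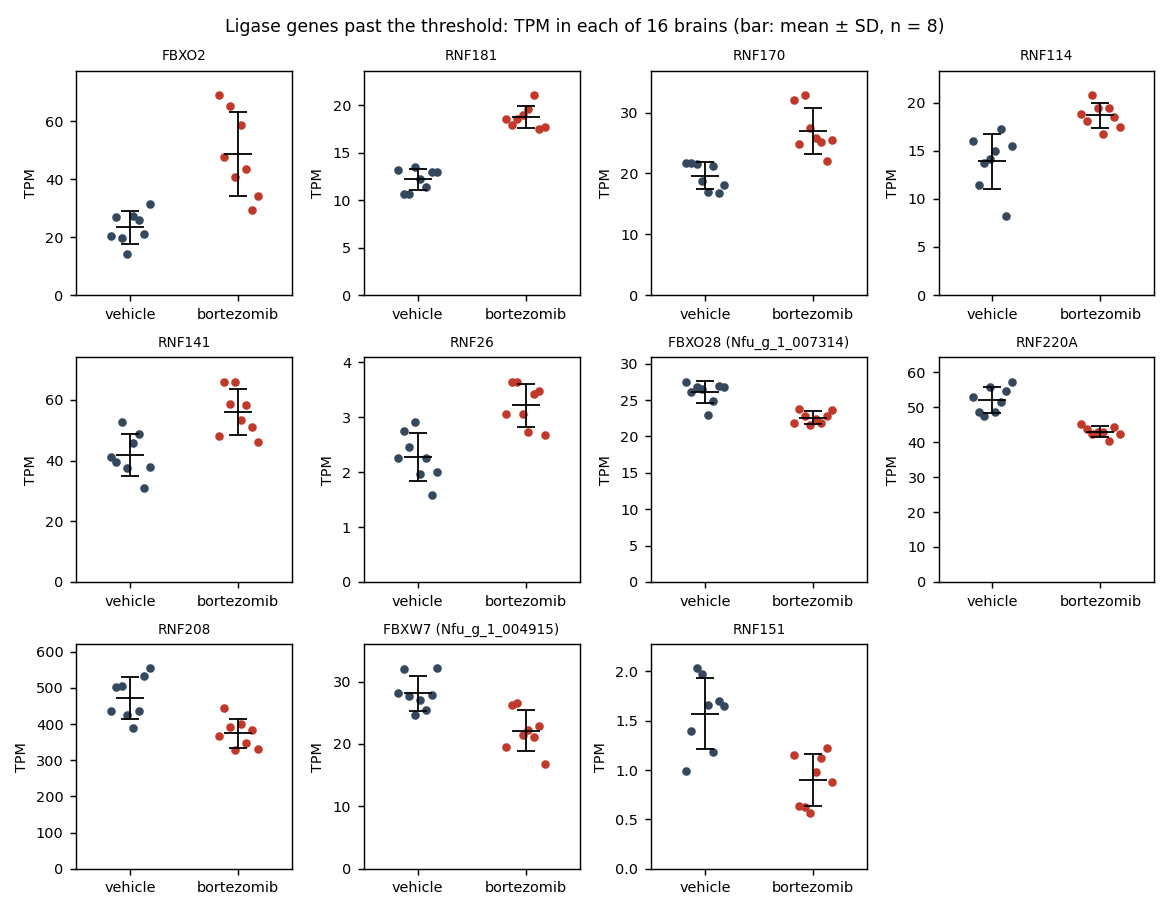
TPM (y axis, from 0) in each of 8 vehicle and 8 bortezomib brains for the 11 ligase rows past the threshold, with bars at the mean ± SD. The groups are fully apart for RNF181, RNF170 and RNF220A, while FBXO2 runs from 29.2 to 69.1 TPM in bortezomib fish.

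Of the F-box rows, FBXO2 rose, and 1 row each of FBXW7 and FBXO28 fell. FBXO2, a brain-enriched receptor in mammals that recognises the sugar chains of misfolded glycoproteins, ran from 29.2 to 69.1 TPM in bortezomib fish (median 45.5) and from 14.1 to 31.5 TPM in vehicle fish (median 23.3). The lowest bortezomib brain lay just below the highest vehicle brain. The means were 48.6 ± 14.5 and 23.3 ± 5.53 TPM (SD, n = 8 each), a log2 fold change of 1.01 ± 0.18 (SE; limma adjusted p = 0.0045), the largest change of any ligase row. FBXW7, the receptor for cyclin E, MYC and NOTCH, was present as 2 rows. The row Nfu_g_1_004915 ran from 16.8 to 26.6 TPM (median 21.8) against 24.6 to 32.1 TPM (median 27.7). Most bortezomib brains were below the vehicle range, and the log2 fold change was -0.34 ± 0.09 (SE; limma adjusted p = 0.0397). The FBXO28 row Nfu_g_1_007314 ran from 21.6 to 23.8 TPM (median 22.6) against 22.9 to 27.6 TPM (median 26.7). FBXO28 is known as a receptor that acts on MYC, and its change was -0.20 ± 0.05 (SE; limma adjusted p = 0.0431), the smallest of the 11.

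The calls of RNF181, FBXO2, RNF220A and RNF170 held without any 1 fish, with adjusted p-values of at most 0.000298, 0.0112, 0.0228 and 0.0246. The other 7 kept their direction but lost the call without certain single fish. RNF208 lost it on leaving out bortezomib replicates 4 or 6, or vehicle replicates 2, 3, 7 or 8 singly (log2 fold change -0.37 to -0.30, adjusted p up to 0.0615). For RNF141 these were bortezomib replicates 2, 4 and 6 and vehicle replicates 2, 4, 7 and 8 (0.36 to 0.47, up to 0.064). For RNF151 they were bortezomib replicates 2 to 5 and vehicle replicates 3, 4, 7 and 8 (-0.49 to -0.40, up to 0.0722). For RNF26 these were bortezomib replicates 1, 2, 3, 4, 6 and 7 and vehicle replicates 5, 7 and 8 (0.32 to 0.41, up to 0.0737). For FBXW7 (Nfu_g_1_004915) they were bortezomib replicates 1, 4, 5, 6 and 7 and vehicle replicates 1, 2, 3, 7 and 8 (-0.38 to -0.29, up to 0.0758). RNF114 kept the call only on leaving out bortezomib replicate 8 or vehicle replicates 1, 5, 6 or 7 (0.33 to 0.47, adjusted p up to 0.0845 otherwise). FBXO28 (Nfu_g_1_007314) kept it only on leaving out bortezomib replicate 8 or vehicle replicates 5 or 6 (-0.22 to -0.19, up to 0.0889 otherwise). Over all rows, calls without single fish ran from 485 to 1108, beside 901 with all fish. Whether the ligase calls moved apart from this was not tested.

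The summed neuron markers moved with the groups, so each call was also fitted with that sum as a covariate, an alternative chosen after seeing the data. RNF181 alone then passed, at 0.53 (limma adjusted p = 0.0142). The log2 fold changes of FBXO2 (1.07, adjusted p = 0.121), RNF170 (0.50, 0.132), RNF220A (-0.28, 0.145) and RNF26 (0.41, 0.285) were about as large as before, but did not pass. Those of RNF141 (0.32, adjusted p = 0.446), RNF151 (-0.33, 0.452), FBXO28 (-0.16, 0.452), FBXW7 (-0.20, 0.552), RNF208 (-0.16, 0.596) and RNF114 (0.14, 0.737) were smaller. In this fit 104 of all rows were called, beside 901 without the covariate. Without the 4 fish with pituitary transcripts, RNF181 (0.56, adjusted p = 0.00518), FBXO2 (1.21, 0.0114) and RNF170 (0.48, 0.0324) passed. The other 8 did not, at adjusted p-values from 0.053 for RNF220A to 0.188 for RNF26, and 325 of all rows were called. Their log2 fold changes were 0.49 for RNF141, 0.49 for RNF114, 0.32 for RNF26, -0.53 for RNF151 and -0.39 for RNF208. They were -0.37 for FBXW7, -0.28 for RNF220A and -0.23 for FBXO28. Of these 8, RNF26 alone had a smaller change than with all fish.

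Among the RING rows grouped by role, the calls fell in 2 groups. Of 14 tested membrane-bound ligases of the ER, Golgi and other organelles, RNF170 and RNF26 rose (background 3.61%) and 12 did not pass. RNF5 and RNF185, which act in ER-associated degradation, were at 61.4 and 70.1 TPM (log2 fold change -0.19 ± 0.06, adjusted p = 0.093) and at 19.3 and 20.6 TPM (-0.09 ± 0.06, adjusted p = 0.364), bortezomib first. RNF139, an ER ligase of sterol control, was at 6.32 and 6.33 TPM. The other calls fell among 32 RING rows with none of the listed roles.

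None of the 7 RING-between-RING rows passed, although this class, which carries ubiquitin on itself before passing it on, held the largest uncalled RING change. RNF144AA, chosen for mention after its values were seen, ran from 8.54 to 24.7 TPM (median 20.7) in bortezomib fish and from 5.13 to 16.9 TPM (median 9.95) in vehicle fish. Its log2 fold change was 0.80 ± 0.24 (SE; limma adjusted p = 0.0679). RNF14, a member that acts on stalled ribosomes in human cells, was at 29.3 and 27.0 TPM in the 2 groups (0.12 ± 0.08, adjusted p = 0.395).

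None of the 8 transmembrane ligases with a protease-associated domain passed. RNF13 (25.4 and 24.7 TPM) and RNF130 (25.5 and 23.7 TPM) lay within the spread between fish. RNF167, a ligase of endosomes and lysosomes, was at 29.4 and 25.2 TPM (0.25 ± 0.16, adjusted p = 0.397). None of the 10 tested chromatin and DNA damage ligases passed. RNF2, the catalytic subunit of the polycomb complex that marks histone H2A, was at 19.5 and 20.2 TPM. RNF20, which with RNF40 marks histone H2B, was at 33.7 and 35.8 TPM, and RNF40 (Nfu_g_1_023458) at 27.7 and 25.98 TPM. RNF168, which acts at DNA breaks, was at 18.8 and 19.8 TPM. RNF4 and RNF111, ligases that recognise SUMO chains, were at 66.4 and 58.9 TPM and at 17.5 and 17.6 TPM.

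RNF7, also known as RBX2, is the RING subunit that serves cullin ligases, mainly with CUL5. It was the ligase row with the highest level under bortezomib, at 410.2 to 488 TPM (median 453), against 378 to 466 TPM (median 449.7) under vehicle. The groups overlapped almost fully, with a log2 fold change of 0.05 ± 0.05 (SE; limma adjusted p = 0.604). RNF10 (134 and 150.0 TPM) differed by -0.16 ± 0.06 on the log2 scale (adjusted p = 0.134). RNF115, which ubiquitinates mislocalised proteins in human cells, differed by -0.18 ± 0.07 (adjusted p = 0.125).

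The F-box families differ in what follows the F-box: WD40 repeats in FBXW, leucine-rich repeats in FBXL and other domains in FBXO proteins. Of 10 FBXW rows, 1 fell (background 1.25%), and the median log2 fold change was -0.025. FBXW11, a receptor for phosphorylated beta-catenin and the NF-kappaB inhibitor, was at 44.2 and 44.4 TPM. Of 18 FBXL rows, 0 passed in limma, while 5 were higher (background 14.2%) and 2 lower (background 6.94%) at p under 0.05 before adjustment. Their median was 0.10, with 11 of 18 positive. FBXL5, an iron-sensing receptor, was at 24.8 and 25.9 TPM (-0.06 ± 0.08), and FBXL4, a mitochondrial protein that restrains mitophagy in mammals, at 4.45 and 3.25 TPM (0.34 ± 0.13, adjusted p = 0.132). FBXL16 was at 57.2 and 45.0 TPM (0.36 ± 0.15, adjusted p = 0.189).

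Of 31 FBXO rows, FBXO2 rose (background 3.61%), FBXO28 (Nfu_g_1_007314) fell (background 1.25%) and 29 did not pass. FBXO9 had the highest level in the family, with 74.7 to 85.5 TPM (median 80.6) in bortezomib fish and 76.1 to 100.8 TPM (median 88.5) in vehicle fish. Its groups overlapped, at a log2 fold change of -0.13 ± 0.06 (adjusted p = 0.249). FBXO45, which in the mouse brain works with a large RING protein in axon and synapse development, was at 59.7 and 55.6 TPM (0.11 ± 0.07, adjusted p = 0.388). FBXO7, linked to inherited parkinsonism and a binder of a proteasome regulator, was at 19.2 and 17.4 TPM (0.13 ± 0.08, adjusted p = 0.388). FBXO32, the atrogin of wasting muscle, was at 3.59 and 3.98 TPM (-0.15 ± 0.17, adjusted p = 0.63). FBXO31 and FBXO22 lay within the spread between fish, at 26.1 and 27.0 TPM and at 24.97 and 24.7 TPM.

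FBXO41 had the second-largest F-box change and varied widely between fish, with a coefficient of variation of 56.6% over vehicle fish. It ran from 3.403 to 14.6 TPM (median 13.3) in bortezomib fish and from 2.97 to 13.5 TPM (median 5.43) in vehicle fish. The low brains were bortezomib replicate 3 at 3.403 TPM and vehicle replicates 2, 3, 4, 7 and 8 at 2.97 to 5.84 TPM, and the ranges overlapped throughout. Its log2 fold change of 0.72 ± 0.30 (SE) did not pass (limma adjusted p = 0.186), passed without bortezomib replicate 3 (adjusted p = 0.046), and was -0.30 with the neuron covariate.

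**Figure D3:**
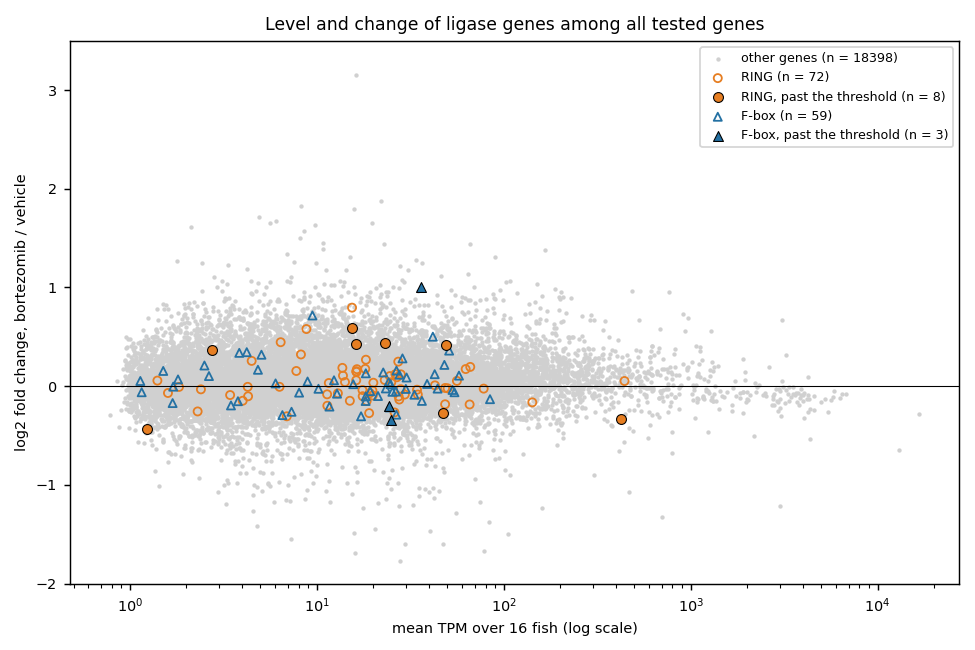
Mean level (x axis, TPM over 16 fish, log scale) against log2 fold change (y axis, bortezomib over vehicle) for the 72 RING rows (circles), the 59 F-box rows (triangles) and the other tested rows (grey dots); filled symbols passed the threshold. The 8 RING and 3 F-box rows that passed run from barely detected (RNF151) to near the top of the ligase levels (RNF208).

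TPM is scaled by gene length, so levels can be set side by side. The median vehicle level was 17.95 TPM for RING rows and 19.7 TPM for F-box rows, beside 13.3 TPM for all rows tested. RNF208 and RNF7 stood highest at 472 ± 59.1 and 435 ± 33.2 TPM in vehicle fish (SD, n = 8), and their ranges overlapped. RNF10 followed at 150.0 ± 11.8 TPM and FBXO9 at 88.5 ± 9.25 TPM. RNF157 was at 78.7 TPM and overlapped FBXO9. The median coefficient of variation between vehicle fish was 15.3% over RING rows and 16.3% over F-box rows, beside 18.6% over all rows. It was lowest in RNF8 (Nfu_g_1_019058), a ligase of the DNA damage response, at 3.51%. RNF213, a very large ligase with an ATPase core, reached 59.0% and was at 23.3 TPM in bortezomib replicate 3, against 4.60 to 9.13 TPM in the other 7 bortezomib fish.

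Several ligases were present as more than 1 row, either copies kept after the genome duplication of bony fishes or pieces of 1 gene whose reads were split. Of the tested rows, 24 shared a symbol with another, over 12 symbols, and their values are therefore uncertain. For 23 pairs of rows the difference of log2(TPM + 1) within the pair was compared between the groups. This was done by a two-sided exact permutation test over all splits of the fish, adjusted over the 23 pairs. Rows of a pair shared a symbol, apart from a copy ending or a final A or B. In 3 pairs the rows responded differently. The rows of each of these pairs shared a symbol, so copies and pieces of 1 gene cannot be told apart. FBXO10 (Nfu_g_1_013917) had a log2 fold change of 0.50, while FBXO10 (Nfu_g_1_013762) was at -0.06, a difference of -0.56 for the second minus the first (exact permutation p = 0.000466, adjusted p = 0.0107). Neither row passed by itself. The FBXW7 row that fell and Nfu_g_1_019198, at 39.4 and 38.5 TPM, differed by -0.36 (exact permutation p = 0.00528, adjusted p = 0.0441). FBXW8, the receptor that works with CUL7, differed by -0.19 between Nfu_g_1_009926 and Nfu_g_1_017125 (exact permutation p = 0.00575, adjusted p = 0.0441).

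Without single fish, the adjusted exact permutation p of the FBXO10 pair was at most 0.0214, while that of the FBXW7 and FBXW8 pairs rose to as much as 0.0882. Leaving out any of 15 fish for FBXW7 and any of 12 for FBXW8 ended the call. The FBXO28 rows differed by -0.27 without passing (adjusted exact permutation p = 0.0876). RNF220A fell and RNF220B did not pass, at 4.09 and 4.49 TPM, but the difference between them was not past the threshold either (adjusted exact permutation p = 0.285).

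**Figure D4:**
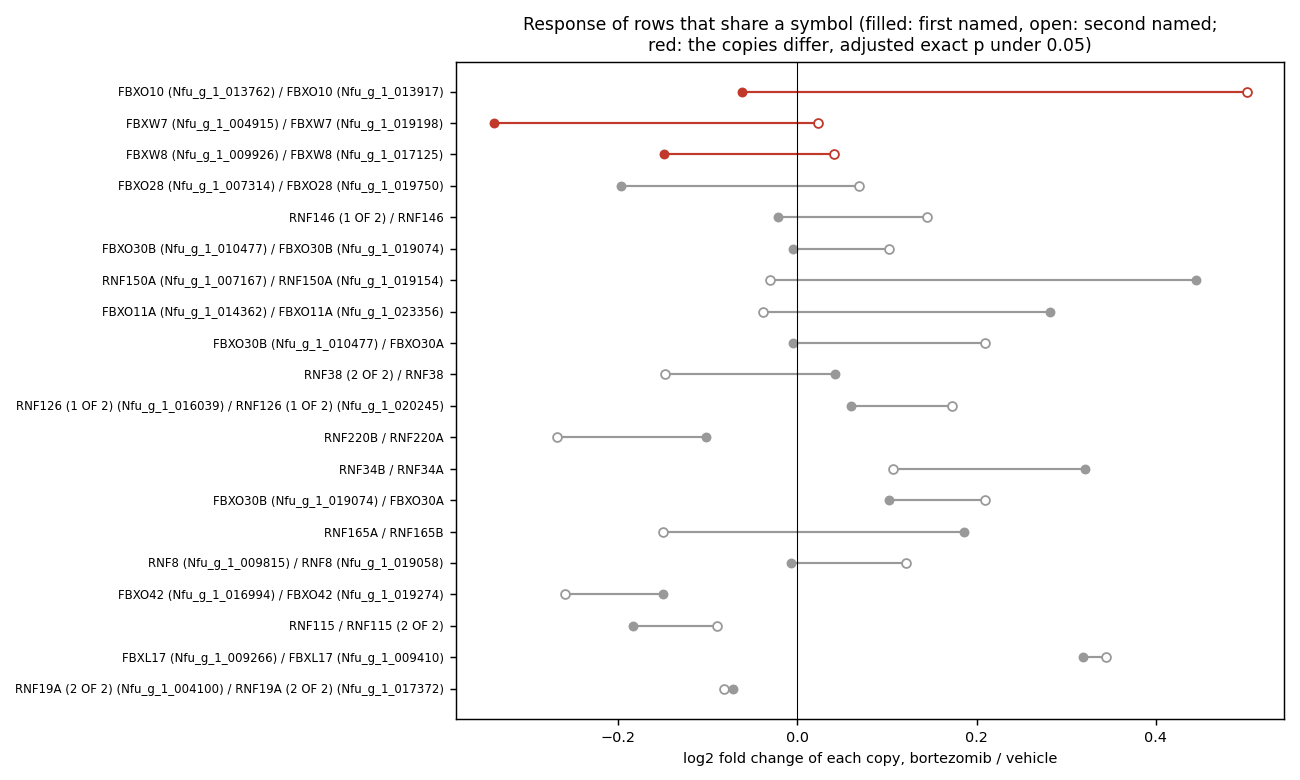
Log2 fold change (x axis, bortezomib over vehicle) of both rows in each of 20 of the 23 pairs. Rows of a pair share a symbol, apart from a copy ending or a final A or B. Filled points are the row named first, open points the row named second, and red pairs differ. The FBXO10 pair spans from -0.06 to 0.50 and is the most unequal of the 3 red pairs.

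Lists of other ubiquitin transfer genes were fitted in the same test. Of 20 tested genes of the SCF core and of neddylation, the cullin activation step, 2 rose (background 3.61%) and 0 fell, with a median of 0.16. SKP1, the adaptor that holds the F-box in SCF ligases, was at 448 ± 35.5 TPM under bortezomib and 363 ± 44.4 TPM under vehicle, with no overlap (SD, n = 8 each; 0.31 ± 0.08, limma adjusted p = 0.0285). UBE2M (Nfu_g_1_011170), which conjugates NEDD8 to cullins, rose by 0.34 ± 0.08 (adjusted p = 0.0289). RBX1, the RING subunit of SCF ligases, was at 328 and 276 TPM (0.25 ± 0.08, adjusted p = 0.0722). These 2 calls were absent without the 4 pituitary fish, with the neuron covariate, and under upper-quartile scaling or quantile normalization.

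Of 28 rows of other cullins and adaptors, 4 rose (background 3.61%) and 0 fell, with a median of 0.07. With the neuron covariate 1 row of this list passed, and with the replicate number as a block 2 did. TCEB1A, a copy of elongin C, rose by 0.42 ± 0.06 (limma adjusted p = 0.000329). Both CUL4B rows, a nuclear cullin scaffold, rose, by 0.71 ± 0.16 and 0.44 ± 0.11 (adjusted p = 0.0186 and 0.0318). CUL2, outside the naming rule and named because the count is small, rose by 0.25 ± 0.07 (adjusted p = 0.0397). The 14 rows of the 20S proteasome core all rose, with a median of 0.74, a pattern already known from earlier work on these data. PSMA6 was present as both PSMA6A and PSMA6 (2 OF 2), so these rows do not cover 14 different subunits.

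Of 11 rows of F-box proteins with other symbols, 0 rose and 2 fell (background 1.25%), with a median of -0.13. Both calls were absent without the pituitary fish and with the neuron covariate, and 1 passed with the replicate number as a block. SKP2, the receptor for the cell-cycle inhibitor p27, was at 1.05 ± 0.086 and 1.59 ± 0.212 TPM (-0.33 ± 0.08, limma adjusted p = 0.0181), and LMO7A fell by 0.47 (adjusted p = 0.0228). Of 78 rows of RING ligases with other symbols, such as MDM2, CBL and TRIM genes, 0 passed in limma. Before adjustment, 7 were higher (background 14.2%) and 5 lower (background 6.94%) at p under 0.05. Their median was 0.014. DTX4 (2 OF 2), of the Deltex family that acts on Notch, came closest, at -0.36 ± 0.10 (adjusted p = 0.0521).

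Of 5 other RING-between-RING rows, 1 rose (background 3.61%). It was ARIH1, which works on active cullin ligases, at 0.42 ± 0.11 (limma adjusted p = 0.0357). Of 29 rows of HECT ligases, which also carry ubiquitin on themselves, 2 rose (background 3.61%) and 0 fell, with a median of -0.0073. With the neuron covariate 0 passed. UBE3A (2 OF 2), a copy of the Angelman syndrome ligase, was at 14.9 ± 2.79 and 7.73 ± 1.80 TPM and rose by 0.87 ± 0.14 (adjusted p = 0.00232). Another row of that gene, UBE3A (1 OF 3), was at 29.4 and 30.9 TPM and did not pass (-0.07 ± 0.10, limma adjusted p = 0.706). UBE3C, which binds the proteasome, rose by 0.42 ± 0.07 (adjusted p = 0.00391). Of 34 rows of BTB-Kelch receptors and related adaptors of CUL3, 1 rose (background 3.61%) and 33 did not pass. It was SPOPLA, at 0.35 ± 0.09 (limma adjusted p = 0.0404). The ARIH1 and SPOPLA calls were absent without the pituitary fish, with the neuron covariate and with the replicate block.

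**Figure D5:**
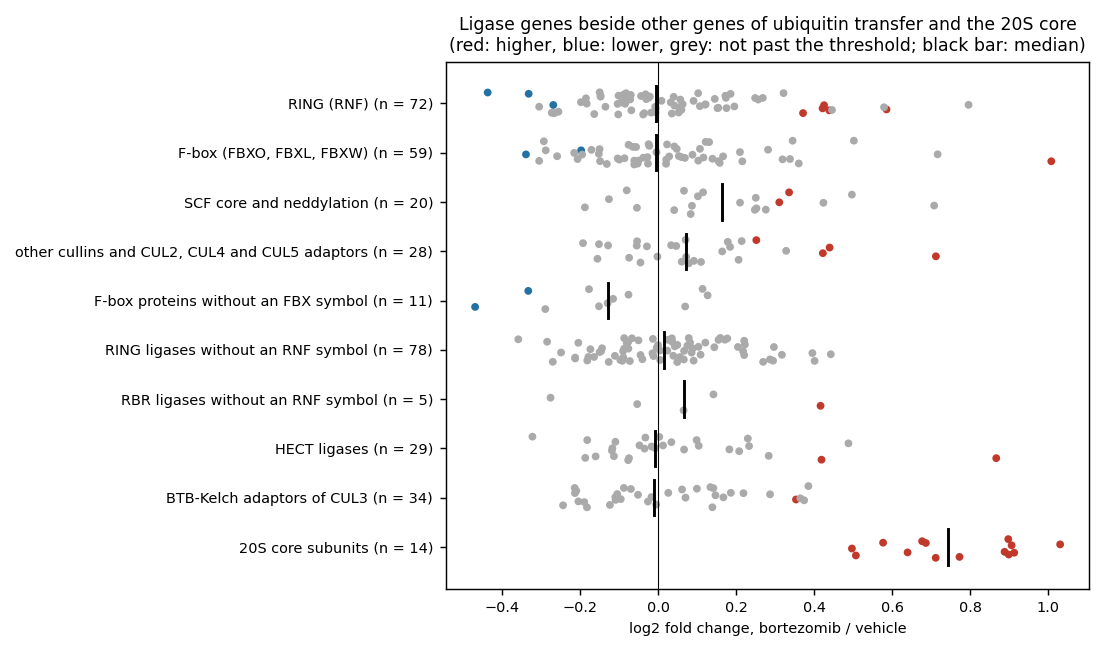
Log2 fold change (x axis, bortezomib over vehicle) of each tested row in the RING and F-box families and in 8 other lists. Black bars are the list medians. Red rows rose, blue rows fell and grey rows did not pass. The RING and F-box medians lie near 0, whereas the 20S core lies at 0.74.

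The level rule left out 17 rows, 9 RING and 8 F-box, none above 3.04 TPM in any fish. Just inside it were RNF151 and FBXO15 (2 OF 2) (Nfu_g_1_004944), whose eighth-highest fish stood at 1.19 TPM in both. The 3 just outside were FBXO15 (2 OF 2) (Nfu_g_1_017495), FBXO15 (1 OF 2) and RNF224, at 0.937, 0.783 and 0.701 TPM. None of the 131 rows met the rule through fish of a single group.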

How the data were processed

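RNA was sequenced from 16 individual brains. The authors deposited 1 table of TPM values, each column summing to 1000000, with gene symbols. Demultiplexing used bcl2fastq 2.20.0.422 and alignment software STAR was named, per the submitters' processing notes. Read counter, genome build and annotation were not given in the sources used here, and 0 identifiers matched the RefSeq gene table, so no coordinates are given. Absolute depth cannot be had from TPM, and counting intervals are left out; relative depth and low read numbers were recovered from the steps between low values (within 0.1 reads).

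Rows reaching 1 TPM in 8 or more fish were tested with limma 3.58.1 (R 4.3.3, intensity trend) on log2(TPM + 1), all 16 fish, no covariate, two-sided, Benjamini-Hochberg over 18529 rows, threshold 0.05. A fold change on this scale understates the change of low genes. Exact permutation tests and figures used Python 3.11.15, scipy 1.17.1 and matplotlib 3.10.9. The fit was tested on simulated data. P-values set the difference between the groups against the spread between individual fish.

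Members and lists were chosen with earlier results of these data known. Named were all rows past the threshold, the 5 RING and 5 F-box rows with the highest levels, a list of 64 symbols, the rows at the edges of the level rule, and the 3 genes with the smallest p in each list; rows named otherwise are said to be. Of the 64 symbols, 4 (RNF31, RNF187, FBXO6 and FBXO44) matched no row, and 1 further symbol is not reported here. Alternatives covered 3 scalings, pseudocounts of 0.1 and 0.5, no level filter or a mean of at least 5 TPM, array weights, a robust variance, a principal component, a replicate block and each fish left out; the fit without pituitary fish and the neuron covariate were added after seeing the data.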

Additional observations from a re-analysis of the deposited data

Results flagged for a closer look

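In 20 of 156 groups of 8 fish, over the named ligase rows, the most extreme fish lay farther out than Dixon's criterion at the 95% level allows. The criterion flags about 1 in 20 groups when values are normal and groups independent. The named rows share the same 16 fish, and the share flagged over all tested rows was not computed. Of the 20 flagged groups, 9 were in bortezomib replicate 8, whose relative depth was 1.11. Its median-of-ratios scaling factor, 0.855, was the lowest of all fish, so its values were low over many genes. Its F-box rows summed to 1023 TPM, against 1264 to 1460 TPM in the other 7 bortezomib fish. Whether the 9 low values exceed this wider shift was not tested. In that fish FBXL2 was at 15.999 TPM (22.9 to 27.5 TPM in the other 7), FBXL5 at 20.4 TPM (24.2 to 26.9), FBXO10 (Nfu_g_1_013762) at 20.0 TPM (49.9 to 67.7), FBXO15 (2 OF 2) at 0.219 TPM (1.08 to 1.81) and FBXO21 at 31.6 TPM (42.8 to 50.4). FBXW11 was at 25.1 TPM (39.9 to 55.2), RNF111 at 8.71 TPM (16.3 to 22.1), RNF168 at 12.9 TPM (18.2 to 22.4) and RNF19A (2 OF 2) (Nfu_g_1_004100) at 8.44 TPM (11.5 to 14.96). It was the lowest fish of its group for all 9.

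Bortezomib replicate 3 stood apart for 3 rows: low for FBXO41 at 3.403 TPM (10.2 to 14.6) and RNF167 at 19.8 TPM (27.8 to 34.4), and high for RNF213 at 23.3 TPM (4.60 to 9.13). FBXO42 (Nfu_g_1_019274) was high in bortezomib replicate 7 at 8.96 TPM (5.69 to 6.82), and RNF4 in bortezomib replicate 5 at 87.4 TPM (55.6 to 67.8) and in vehicle replicate 2 at 82.2 TPM (51.5 to 60.4). Vehicle replicate 6 was low for FBXO10 (Nfu_g_1_013762) at 36.2 TPM (51.4 to 60.6), RNF168 at 14.0 TPM (18.9 to 24.6) and RNF2 at 15.9 TPM (18.9 to 21.9). Vehicle replicate 7 was low for FBXO28 (Nfu_g_1_019750) at 0.932 TPM (1.64 to 2.16) and RNF139 at 4.21 TPM (6.10 to 7.96). Ranges in parentheses are those of the other 7 fish of the same group. None of these rows passed the threshold.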

How the results depend on the processing

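No alternative turned the direction of a ligase row that passed the threshold, while the family medians, all close to 0, changed sign under some. The robust variance, the first principal component and the replicate block could not turn a direction, because they leave every fold change as it is. Without single fish, the RING median ran from -0.031 to 0.037, the F-box median from -0.031 to 0.084 and their difference from -0.047 to 0.034. The counts moved more. Without single fish, 2 to 6 RING rows were higher and 1 to 5 lower, and 1 to 3 F-box rows were higher and 0 to 3 lower. Calls over all rows ran from 485 to 1108 in these fits. In them, 3 to 4 RING and 0 to 1 F-box rows did not overlap. Array weights gave 8 RING and 3 F-box rows higher. The first principal component as a covariate gave 8 RING higher and 6 lower and 4 F-box higher. This component was computed from the deviations of these same fish from their group means. It therefore takes up spread within the groups and moves no fold change, so calls gained with it are not separate support. Calls over all rows, in both directions together, also rose, to 1892 with array weights and 2434 with the component, beside 901 in the main fit. Whether the ligase counts rose beyond this was not tested. Quantile normalization gave 6 RING rows lower, with 1112 of all rows called. F-box rows lower numbered 1 under each of the 3 scalings (median of ratios, upper quartile, quantile). Under the first and second of these, 1 RING row did not overlap, beside 3 in the main fit. The share over all rows is not given for these scalings. Without the pituitary fish there were 2 RING higher, 0 RING lower and 1 F-box lower, with 7 RING and 3 F-box rows not overlapping. Smaller groups separate more easily by chance, and no share of non-overlapping rows over all rows is given for the fits with fish left out. The non-overlap counts of those fits therefore cannot be compared with the counts from the full set of fish. The neuron covariate left 1 RING higher, 0 RING lower, 0 F-box higher and 0 F-box lower. Among the 11 rows, FBXO28 (Nfu_g_1_007314) also lost its call under the 3 scalings (adjusted p = 0.0555, 0.0532 and 0.0618), RNF114 under median-of-ratios (0.0515), upper-quartile scaling (0.0562) and no filter (0.0579), and RNF26 under quantile normalization (0.0864). Rows that gained a call included RNF5, RNF10, RNF115, FBXO41, RNF167 and FBXO11A (Nfu_g_1_014362) with the principal component. RNF115 also gained one under the 3 scalings (limma adjusted p = 0.0376, 0.0377 and 0.0246). RNF5 (0.0215) and RNF10 (0.0109) did so under quantile normalization.

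No pairing of fish by replicate number was seen. The correlation of deviations between same-numbered fish ran from -0.24 to 0.41, and 0 of 8 numbers was the best match of its own pair. Whether same-numbered fish shared their handling was not tested. With the replicate block, RING rows higher numbered 3 and lower 1, and F-box rows higher 1 and lower 0. Calls over all rows fell as well, to 491 from 901 in the main fit. Both medians and their difference stayed at -0.0065, -0.0044 and -0.0021, as the design fixes. Each replicate number occurs once in each group, so the block changes standard errors but no fold change. The block ended the calls of RNF208 (adjusted p = 0.0571), RNF114 (0.0845), RNF26 (0.0866), FBXW7 (Nfu_g_1_004915, 0.0918), RNF151 (0.118) and FBXO28 (Nfu_g_1_007314, 0.132). In that block 2 other cullin rows, 1 other F-box row, 0 other RING-between-RING rows and 0 BTB-Kelch rows passed. For the 20S core 14 rows passed, for the SCF core 3, for HECT ligases 2 and for other RING ligases 0.

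For the other lists, SCF core calls numbered 1 under median-of-ratios scaling, 0 under upper-quartile scaling, quantile normalization, the neuron covariate and without pituitary fish, 5 with the principal component, and 0 to 3 without single fish. Other cullins numbered 7 with the component and 1 with the neuron covariate (2 to 4 without single fish). F-box proteins with other symbols numbered 1 at a mean of at least 5 TPM and 0 without pituitary fish or with the neuron covariate (2 to 3 without single fish). Other RING ligases numbered 3 under each of the 3 scalings, 1 at a mean of at least 5 TPM, 4 with array weights and 8 with the component (0 to 3 without single fish). Other RING-between-RING ligases numbered 0 without pituitary fish or with the neuron covariate (0 to 1 without single fish). HECT ligases numbered 4 with array weights and 0 with the neuron covariate (2 to 3 without single fish). BTB-Kelch adaptors numbered 2 under each of the 3 scalings, 4 with array weights, 3 with the component, and 0 with no filter, without pituitary fish or with the neuron covariate (0 to 2 without single fish). Pairs of rows that differed numbered 3 at a pseudocount of 0.1 and 1 to 5 without single fish, and were not run under the other alternatives. Calls over all rows moved too, from 901 in the main fit. They numbered 955 under median-of-ratios scaling, 957 under upper-quartile scaling and 1112 under quantile normalization. With array weights there were 1892 and with the component 2434. There were 905 at a mean of at least 5 TPM, 755 with no filter, 325 without pituitary fish and 104 with the neuron covariate. Without single fish they ran from 485 to 1108. Whether any list moved apart from these totals was not tested, and neither was the cause of the shifts.

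Sign changes are given for the 78 named ligase rows only. Every row among them that changed sign was one that had not passed. Array weights did so for FBXO10 (Nfu_g_1_013762) at 0.058, FBXW11 at 0.015, RNF111 at 0.054, RNF115 (2 OF 2) at 0.030, RNF13 at -0.023, RNF139 at 0.012, RNF157 at 0.028 and RNF8 (Nfu_g_1_009815) at 0.13. Median-of-ratios scaling did so for FBXO22 at -0.011 and FBXW7 (Nfu_g_1_019198) at -0.0096, and upper-quartile scaling for FBXO22 at -0.020, FBXW7 (Nfu_g_1_019198) at -0.019, FBXW8 (Nfu_g_1_017125) at -0.00016 and RNF13 at -0.00099. Quantile normalization did so for FBXL20 at -0.010, FBXO22 at -0.015, FBXW7 (Nfu_g_1_019198) at -0.019, RNF41 at -0.012 and RNF7 at -0.0064. Without pituitary fish, FBXO15 (2 OF 2) (Nfu_g_1_004944) was at -0.050, FBXO22 at -0.046, FBXO34 at 0.012, FBXW7 (Nfu_g_1_019198) at -0.014, FBXW8 (Nfu_g_1_017125) at -0.094, RNF126 (1 OF 2) (Nfu_g_1_016039) at -0.0079, RNF139 at 0.049 and RNF146 (1 OF 2) at 0.018. With the neuron covariate the F-box rows that turned were FBXO10 (Nfu_g_1_013762, 0.29), FBXO11A (Nfu_g_1_014362, -0.15), FBXO11A (Nfu_g_1_023356, 0.074), FBXO3 (0.019), FBXO32 (0.13), FBXO34 (0.037), FBXO38 (0.051), FBXO41 (-0.30), FBXO42 (Nfu_g_1_016994, 0.021), FBXO9 (0.00070), FBXW11 (0.21), FBXW2 (0.0047), FBXW4 (0.15), FBXW7 (Nfu_g_1_019198, -0.015) and FBXW8 (Nfu_g_1_009926, 0.054). The RING rows were RNF103 (0.087), RNF111 (0.17), RNF115 (2 OF 2) (0.024), RNF128 (0.039), RNF146 (1 OF 2) (0.025), RNF157 (0.048), RNF167 (-0.29), RNF168 (0.20), RNF19A (2 OF 2) (Nfu_g_1_004100, 0.11, and Nfu_g_1_017372, 0.030), RNF2 (0.10), RNF20 (0.054), RNF216 (0.10), RNF34B (-0.12), RNF41 (-0.069) and RNF8 (Nfu_g_1_009815, 0.013). Without single fish, sign changes occurred in FBXL20 (-0.014 to 0.14), FBXO10 (Nfu_g_1_013762, -0.14 to 0.13), FBXO11A (Nfu_g_1_023356, -0.079 to 0.022), FBXO15 (2 OF 2) (-0.0036 to 0.17), FBXO22 (-0.0066 to 0.049), FBXO28 (Nfu_g_1_019750, -0.0024 to 0.099), FBXO34 (-0.11 to 0.0083), FBXW11 (-0.074 to 0.084), FBXW7 (Nfu_g_1_019198, -0.024 to 0.084) and FBXW8 (Nfu_g_1_017125, -0.019 to 0.089). Among RING rows they occurred in RNF111 (-0.090 to 0.088), RNF139 (-0.075 to 0.069), RNF146 (1 OF 2) (-0.059 to 0.015), RNF157 (-0.055 to 0.026), RNF168 (-0.14 to 0.00084), RNF19A (2 OF 2) (Nfu_g_1_004100, -0.11 to 0.0022), RNF213 (-0.069 to 0.31) and RNF8 (Nfu_g_1_009815, -0.074 to 0.087).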
